A study of Mus musculus with 6 samples.

Results

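Cytochrome P450 genes of families 1 to 4 were described in whole mouse kidneys with diabetic kidney disease (DKD) and in control kidneys. A gene was a member if its symbol was Cyp followed by a family number from 1 to 4, a subfamily letter and a gene number, and if it had at least 60 counts summed over the 6 libraries. Of the 55401 gene rows, 80 had such a symbol and 56 were members. The other 24 fell under the minimum, and 11 of these had no count in any library. Just outside the minimum were Cyp2b23 and Cyp2c65 with 59 counts each and Cyp2c55 with 50, and just inside it were Cyp2t4 with 80, Cyp4f39 with 86 and Cyp3a59 with 127.

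The series sequenced poly(A) RNA of 3 DKD kidneys and 3 control kidneys, with histone methyltransferases as its stated subject. The labels give DKD or control as the genotype, the tissue and a replicate number. They do not give the strain, age or sex of the mice or the way the disease was induced. Nor is it stated that each library is a separate animal, so that p-values measure the spread between libraries, which may be technical. Totals were 77417638, 71588579 and 77161106 counts in DKD replicates 1 to 3 and 64816622, 68906395 and 72845799 counts in control replicates 1 to 3.

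Enzymes of these families are haem proteins of the endoplasmic reticulum that insert 1 atom of oxygen into their substrate, with electrons passed on by P450 oxidoreductase and cytochrome b5. Families 1 to 3 are best known for the oxidation of drugs, toxins and steroids, and family 4 for the hydroxylation of fatty acids at or near their last carbon. In the kidney they are found above all in the proximal tubule, where Cyp2c and Cyp2j enzymes turn arachidonic acid into epoxides and Cyp4a enzymes turn it into 20-HETE, lipids that act on vessels and on salt transport.

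The members form 18 subfamilies. The Cyp2c subfamily had 10 members, Cyp2j and Cyp4f had 7 each, Cyp2d and Cyp4a had 6 each, Cyp3a had 4, and the others had 1 to 3. By the gene table, 14 members lie on chromosome 4, 10 on chromosome 7, 10 on chromosome 19, 7 on chromosome 17, 6 on chromosome 15, 4 on chromosome 5, 2 on chromosome 8, 2 on chromosome 9 and 1 on chromosome 3. Many are near copies of each other, so reads can be shared between them. In the GENCODE M21 transcripts (GRCm38), 34 members held no stretch of 150 bases, the read length, in common with any other gene. At least 10% of such stretches were shared in 5 members, which were Cyp2c40 (29.1%), Cyp4a12b (25.9%), Cyp4a12a (25.6%), Cyp2c69 (22.5%) and Cyp2c67 (13%).

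Cyp4a12a and Cyp4a12b, whose levels are among the results below, differ at 23 of 1524 coding bases. A stretch of their coding sequence (bases 660 to 809 of GENCODE M21, counted from the start codon) holds 9 of these 23 bases, in capitals. It is thus richer in differences than their coding sequence as a whole.
Cyp4a12a: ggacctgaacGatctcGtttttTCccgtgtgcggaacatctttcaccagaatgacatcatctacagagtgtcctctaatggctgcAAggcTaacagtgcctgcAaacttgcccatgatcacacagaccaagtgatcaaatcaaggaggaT
Cyp4a12b: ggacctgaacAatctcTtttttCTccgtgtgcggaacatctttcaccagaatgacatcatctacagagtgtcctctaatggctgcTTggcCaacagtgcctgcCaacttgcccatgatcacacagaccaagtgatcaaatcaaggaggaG
Cyp2d9, Cyp2d12 and Cyp2d10 are further apart, with 180 of 1512 coding bases at which the 3 are not all alike. Bases 659 to 808 hold 33 of these, again in capitals.
Cyp2d9: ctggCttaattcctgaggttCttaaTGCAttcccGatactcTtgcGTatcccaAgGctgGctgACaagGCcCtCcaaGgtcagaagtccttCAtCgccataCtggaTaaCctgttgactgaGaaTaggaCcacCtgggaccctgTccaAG
Cyp2d12: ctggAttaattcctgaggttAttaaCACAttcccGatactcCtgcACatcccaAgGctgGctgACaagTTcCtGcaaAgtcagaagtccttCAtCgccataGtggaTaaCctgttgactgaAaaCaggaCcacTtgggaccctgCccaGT
Cyp2d10: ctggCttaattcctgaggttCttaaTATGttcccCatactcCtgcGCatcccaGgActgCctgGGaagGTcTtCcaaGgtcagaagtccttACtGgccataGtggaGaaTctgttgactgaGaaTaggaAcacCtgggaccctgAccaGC

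Levels are given as CPM, counts relative to the library total and scaled by the TMM factors of the libraries. A count of 0 allows up to 3 counts, which is 0.0353 to 0.0505 CPM in these libraries and covers counting error only. Kidney markers were present throughout: Slc34a1, a phosphate transporter of the proximal tubule, had 3085 to 4632 CPM in DKD and 4762 to 5539 CPM in control kidneys, and Umod, of the loop of Henle, had 2955 to 3566 CPM in DKD and 2258 to 3182 CPM in control kidneys. DKD replicate 1 stood apart. Of 22 hepatocyte genes, 20 were highest in that library, and Serpina3k, Tat, Mup3 and Ahsg were at 0 in the other 5. The summed level of the list was 5715, 618 and 769 CPM in DKD replicates 1 to 3 and 581 to 727 CPM in control kidneys. Albumin had 2321, 9.47 and 7.2 CPM in the DKD libraries and 12.2 to 14.7 CPM in control kidneys. Values of members and pathway genes are therefore also given below with this library left out where the call then changes.

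As a whole, the members were at a lower level in DKD kidneys. Their summed level was 7400, 7357 and 6842 CPM in DKD kidneys and 12539, 12563 and 11236 CPM in control kidneys, and the groups lay far apart relative to their spread. The means were 7200 ± 310 and 12112 ± 759 CPM in DKD and control kidneys (SD, n = 3 each), a ratio of 0.594. The members held 0.728%, 0.792% and 0.753% of all counts in DKD libraries and 1.15%, 1.2% and 1.09% in control libraries. Most of this sum came from 3 genes, Cyp4b1, Cyp2e1 and Cyp2j5, which made up 68.4%, 60.7% and 50.3% of it in DKD kidneys and 75.2%, 68.5% and 67.3% in control kidneys. The sum thus speaks mainly for abundant members. In bulk tissue, fewer cells of a type and less RNA per cell cannot be told apart.

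**Figure D1:**
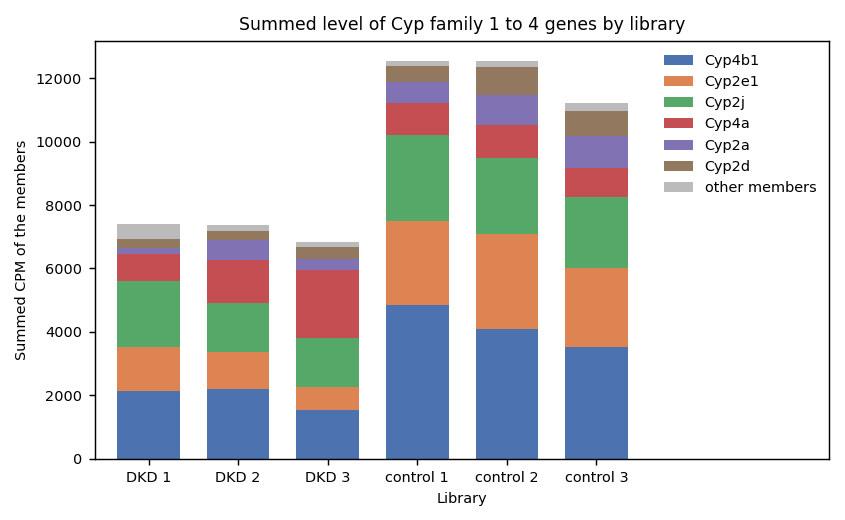
Summed CPM of the 56 members in each library, stacked by gene or subfamily, DKD replicates 1 to 3 on the left and control replicates 1 to 3 on the right. The DKD sums lie between 6842 and 7400 CPM, under all control sums (11236 to 12563 CPM), while the Cyp4a segment is wider in DKD replicates 2 and 3.

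Counted gene by gene, the members did not move one way. The count filter of the edgeR quasi-likelihood test kept 44 members. The 12 left untested were almost absent outside DKD replicate 1, whatever their counts there. Of the 44, 28 were fitted higher and 16 lower in DKD kidneys, with a median log2 fold change of 0.26, against 0.02 over the 19197 genes tested. With DKD replicate 1 left out, 24 were fitted higher and 20 lower, with a median of 0.09, against 0.02 over all genes. No member passed the adjusted p threshold of 0.05 in edgeR's quasi-likelihood test, as none of all 19197 genes did (0%). At an unadjusted p under 0.05 by the same test stood 23 members (52.3%), 11 of them higher and 12 lower, against 3694 of all genes (19.2%), with 12.2% higher and 7.05% lower. Among the 11 higher were Cyp3a11, Cyp2d10, Cyp3a13 and Cyp2c69, with 99%, 90.9%, 66% and 64.5% of their counts in DKD replicate 1. The CPM of DKD and control kidneys did not overlap for 16 tested members (36.4%), 5 higher and 11 lower, against 4870 of all genes (25.4%), with 13.8% higher and 11.5% lower. Cyp3a13 was also among these 5 higher members. A gene passes the count filter if it is well counted in either group, so these shares describe the tested members and not all 56.

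Without DKD replicate 1, edgeR's quasi-likelihood test called 15 of 44 members (34.1%) at the adjusted threshold, against 3101 of 19989 genes (15.5%), of which 9.67% rose and 5.84% fell. The 6 members that rose were Cyp4a10, Cyp4a14, Cyp4a31, Cyp4f16, Cyp4f18 and Cyp4v3, all of family 4. The 9 that fell were Cyp2d9, Cyp2e1, Cyp2j5, Cyp2j9, Cyp2j11, Cyp2j13, Cyp4a12a, Cyp4a12b and Cyp4b1. On all 6 libraries, limma-voom with sample quality weights called 16 members (36.4%), 5 higher and 11 lower, against 17.7% of all genes, 9.93% higher and 7.78% lower. DESeq2 called 18 members (40.9%), 7 higher and 11 lower, against 9.11% of all genes, 6.22% higher and 2.89% lower. It gave no adjusted p for Cyp2c68, Cyp2d10, Cyp2f2, Cyp2r1, Cyp2t4, Cyp3a11 and Cyp4f39. In the DESeq2 shares of members and of all genes, a gene without an adjusted p counts as not called. All 3 of these fits called the same 10 members, Cyp4a14, Cyp4a31 and Cyp4v3 higher and Cyp2d9, Cyp2e1, Cyp2j9, Cyp2j13, Cyp4a12a, Cyp4a12b and Cyp4b1 lower in DKD kidneys. The weighted limma-voom fit also called Cyp2r1 and Cyp4f16 higher and Cyp2c23, Cyp2d12, Cyp2j5 and Cyp2j11 lower. DESeq2 also called Cyp2c69, Cyp2s1, Cyp3a13 and Cyp4f18 higher and Cyp2a4, Cyp2a5, Cyp2c23 and Cyp2d12 lower.

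**Figure D2:**
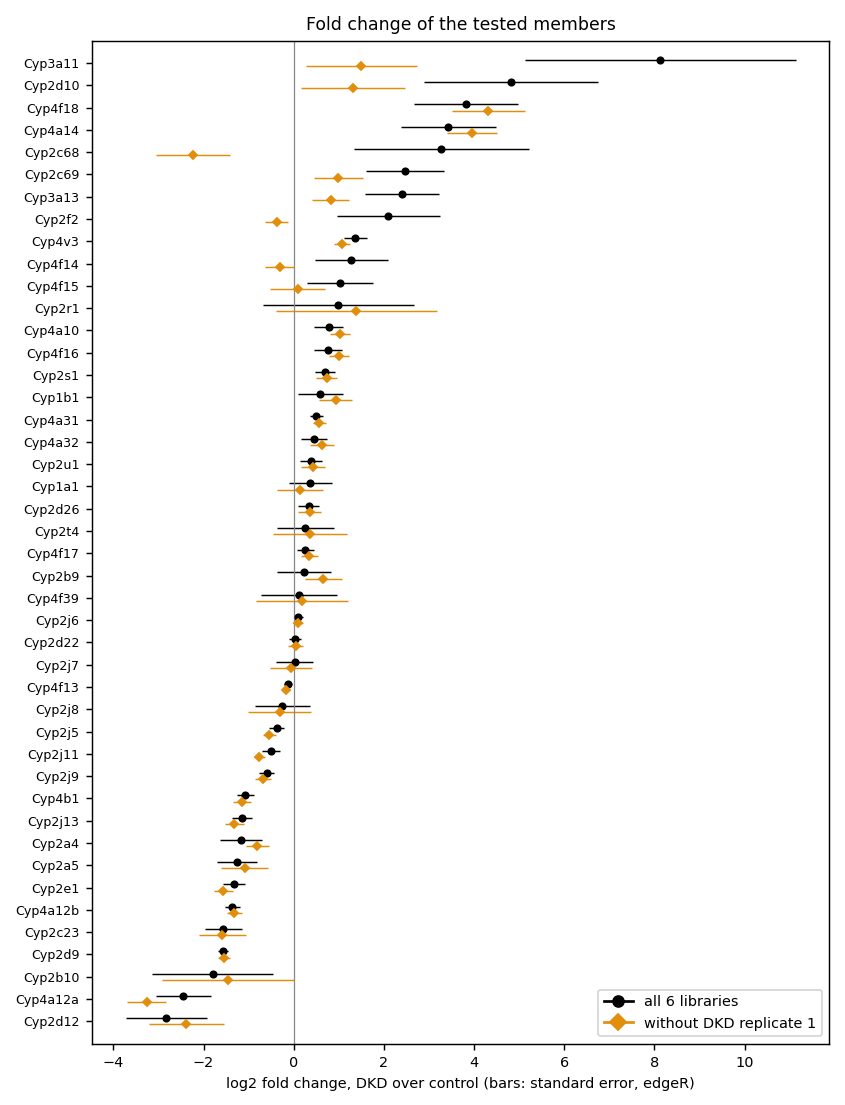
Log2 fold change of DKD over control kidneys (x axis) for the 44 tested members (y axis, in order of the change), with standard errors from edgeR. Black circles use all 6 libraries and orange diamonds leave out DKD replicate 1; Cyp3a11 at 8.13 and 1.50 and Cyp2c68 at 3.27 and -2.23 move far between them, Cyp4a12a at -2.45 and -3.26 moves less, and Cyp2d9 at -1.57 and -1.55 moves little.

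Within the Cyp4a subfamily, the fatty acid hydroxylases, members went in opposite directions. Cyp4a12a, the main 20-HETE synthase of the mouse kidney and known to be raised by androgens, had 104, 44.9 and 19.1 CPM in DKD kidneys and 237, 364 and 315 CPM in control kidneys. All DKD values lay under all control values, and they differed among themselves more than the control values did. Its log2 fold change was -2.45 ± 0.61 (SE), or -3.26 ± 0.43 with DKD replicate 1 left out (adjusted p = 0.14 and 0.0086 by edgeR's quasi-likelihood test). Its near copy Cyp4a12b had 19.4, 23.7 and 19.8 CPM in DKD kidneys and 43.4, 62.2 and 55.8 CPM in control kidneys, a log2 fold change of -1.36 ± 0.16 (edgeR's quasi-likelihood test, adjusted p = 0.0978, or 0.00529 with DKD replicate 1 left out). The groups did not overlap here either, but the DKD values were close together. The ratio of Cyp4a12a to Cyp4a12b counts was 5.37, 1.9 and 0.968 in DKD kidneys and 5.46, 5.86 and 5.65 in control kidneys. With their coding sequences 98.5% identical, the split of reads between them is uncertain, and their sum had a log2 fold change of -2.22 ± 0.42 (edgeR's quasi-likelihood test, adjusted p = 0.103).

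Cyp4a14, a fatty acid hydroxylase whose gene is a classical target of the lipid sensor PPAR-alpha, went the other way. It had 48.1, 451 and 824 CPM in DKD kidneys and 68.4, 31.4 and 23.4 CPM in control kidneys. DKD replicates 2 and 3 were far above every control, and DKD replicate 1 lay among the controls. The log2 fold change was 3.43 ± 1.06 on all libraries, or 3.95 ± 0.56 with DKD replicate 1 left out (adjusted p = 0.185 and 0.0149 by edgeR's quasi-likelihood test). Cyp4a10, another PPAR-alpha target, had 331, 495 and 841 CPM in DKD kidneys and 363, 332 and 278 CPM in control kidneys, with the same order of the DKD libraries. Its log2 fold change was 0.78 ± 0.32, and 1.03 ± 0.22 without DKD replicate 1 (adjusted p = 0.255 and 0.0245 by edgeR's quasi-likelihood test).

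Cyp4a31 had 322, 343 and 432 CPM in DKD kidneys and 279, 270 and 227 CPM in control kidneys, a small difference without overlap, with a log2 fold change of 0.50 ± 0.15 (edgeR's quasi-likelihood test, adjusted p = 0.162, or 0.0369 with DKD replicate 1 left out). Cyp4a32, a near copy of Cyp4a10 and Cyp4a31 at 6.07 to 9.76 CPM in DKD and 4.27 to 7.79 CPM in control kidneys, overlapped between the groups. The sum of the 3 copies had a log2 fold change of 0.66 ± 0.25 (edgeR's quasi-likelihood test, adjusted p = 0.218). The summed level of the subfamily was 831, 1367 and 2146 CPM in DKD kidneys and 998, 1068 and 904 CPM in control kidneys, with DKD replicate 1 the lowest of all 6 and the other DKD libraries above every control. The ratio of Cyp4a14 to Cyp4a12a counts shows the split most plainly, with 0.462, 10 and 43.1 in DKD kidneys and 0.289, 0.0863 and 0.0743 in control kidneys.

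Cyp4b1, which hydroxylates fatty acids and activates the lung toxin 4-ipomeanol, was the most abundant member in CPM. Its level was 2126, 2210 and 1546 CPM in DKD kidneys and 4832, 4095 and 3528 CPM in control kidneys, so that all DKD values were well under the lowest control. The log2 fold change was -1.08 ± 0.19 (edgeR's quasi-likelihood test, adjusted p = 0.103, or 0.0117 with DKD replicate 1 left out). Per kilobase of transcript it was also first, with mean levels of 1036 CPM per kb in DKD and 2194 CPM per kb in control kidneys. Next came Cyp2e1 with 591 CPM per kb in DKD and 1481 CPM per kb in control kidneys, and Cyp2j5 with 545 CPM per kb in DKD and 710 CPM per kb in control kidneys. Cyp2e1 and Cyp2j5 thus stood close together in DKD kidneys and apart in control kidneys.

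Cyp4v3, the mouse counterpart of the human retinal fatty acid hydroxylase CYP4V2, had 22.5, 15.1 and 11.7 CPM in DKD kidneys and 6.02, 6.8 and 6.19 CPM in control kidneys. Every DKD value was above every control value, with DKD replicate 1 the highest. The log2 fold change was 1.37 ± 0.25, and 1.07 ± 0.17 without that library (adjusted p = 0.103 and 0.00989 by edgeR's quasi-likelihood test). Of the 7 Cyp4f members, 6 were fitted higher, and their summed level was 65.5, 63 and 57.7 CPM in DKD kidneys and 53, 54.3 and 54.2 CPM in control kidneys. Cyp4f14 was among the 6 through DKD replicate 1, at 11 CPM there and 1.37 to 2.43 CPM in the other libraries. Without that library the log2 fold change of Cyp4f14 went from 1.28 to -0.31, and that of Cyp4f15 from 1.03 to 0.09. Cyp4f18, an enzyme of mouse neutrophils that inactivates leukotriene B4, was at a low level of 0.25, 2.13 and 2.53 CPM in DKD kidneys and 0, 0.182 and 0.155 CPM in control kidneys. Its log2 fold change of 3.82 ± 1.16 (edgeR's quasi-likelihood test, adjusted p = 0.165, or 0.0157 with DKD replicate 1 left out) rests on few control counts. Beside this, all 4 macrophage markers were fitted higher and 2 did not overlap, where 13.8% of all tested genes were higher without overlap. The summed level of the 4 markers was 83.7 to 106 CPM in DKD and 71.3 to 83.2 CPM in control kidneys. Csf1r made up most of that sum in every library, and its log2 fold change was 0.03 ± 0.17, or -0.17 without DKD replicate 1. Cd68 had 3.1, 7.47 and 10.6 CPM in DKD and 2.23 to 2.32 CPM in control kidneys. The part of these markers in the Cyp4f18 result was not tested.

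Cyp4f16 had 6.3, 11.9 and 13.4 CPM in DKD kidneys and 7.76, 6.06 and 4.88 CPM in control kidneys, where again DKD replicate 1 lay among the controls. It was called only without that library among the edgeR fits, with a log2 fold change of 1.01 ± 0.22 (adjusted p = 0.0251 by edgeR's quasi-likelihood test). The more abundant Cyp4f13 was at 30.5 to 35.4 CPM in DKD and 35.6 to 36.5 CPM in control kidneys, an absence of overlap on a difference of only -0.12 ± 0.09 on the log2 scale, whose sign turned when libraries were scaled by size alone (0.02). Cyp4f17 overlapped, at 8.69 to 12.3 CPM in DKD and 7.42 to 9 CPM in control kidneys.

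**Figure D3:**
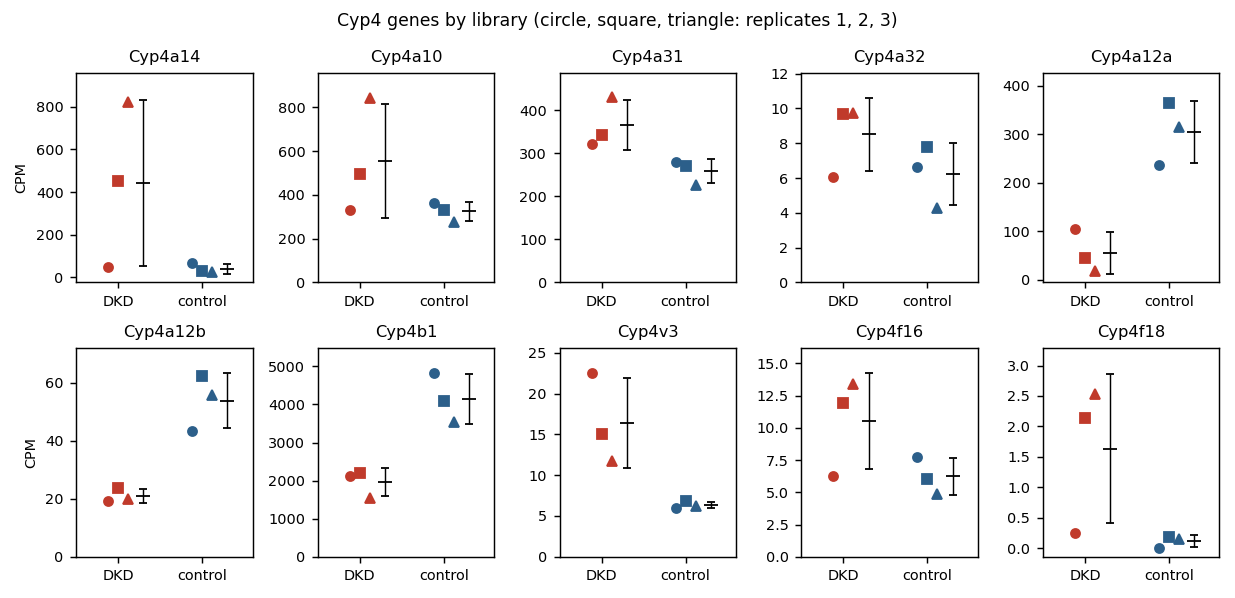
CPM (linear axes) of 10 family 4 genes in the 3 DKD libraries (red, left) and the 3 control libraries (blue, right), with the mean and SD beside them. Cyp4a14 reaches 824 CPM in DKD replicate 3 while replicate 1 (circle) stays at 48.1 CPM, and Cyp4a12a, Cyp4a12b and Cyp4b1 are lower in every DKD library than in any control.

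Among the epoxygenases, the Cyp2j genes were at lower or like levels in DKD kidneys. Of 7 members, 5 were fitted lower, and the summed level was 2090, 1557 and 1552 CPM in DKD kidneys and 2726, 2370 and 2242 CPM in control kidneys, without overlap. Cyp2j5, the abundant arachidonic acid epoxygenase of the mouse kidney, had 1533, 1118 and 1183 CPM in DKD kidneys and 1940, 1506 and 1550 CPM in control kidneys. DKD replicate 1 lay among the controls, and the log2 fold change was -0.38 ± 0.17, or -0.54 ± 0.14 without it (adjusted p = 0.278 and 0.0394 by edgeR's quasi-likelihood test).

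Cyp2j13 had 254, 215 and 153 CPM in DKD kidneys and 432, 560 and 379 CPM in control kidneys, with a log2 fold change of -1.14 ± 0.22 (edgeR's quasi-likelihood test, adjusted p = 0.103, or 0.00985 with DKD replicate 1 left out). The groups lay well apart, and the change was the largest of the subfamily. Cyp2j9 had 15.6, 13.9 and 13.2 CPM in DKD kidneys and 17.7, 26.4 and 20.8 CPM in control kidneys, also without overlap but at -0.60 ± 0.17 on the log2 scale (adjusted p = 0.145 by edgeR's quasi-likelihood test, or 0.046 with DKD replicate 1 left out). Cyp2j11, at 145 to 227 CPM in DKD and 221 to 275 CPM in control kidneys, overlapped by DKD replicate 1 alone and was called with it left out (log2 fold change -0.76 ± 0.12, adjusted p = 0.00962 by edgeR's quasi-likelihood test). Cyp2j6, at 56.5 to 60.4 CPM in DKD and 49.1 to 59.5 CPM in control kidneys, overlapped and had a log2 fold change of 0.10 ± 0.10.

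The main Cyp2c gene of these kidneys was Cyp2c23, also called Cyp2c44, a renal epoxygenase of arachidonic acid. It had 36.4, 35.9 and 33.8 CPM in DKD kidneys and 46.6, 110 and 157 CPM in control kidneys. The DKD values were nearly equal, while the controls were spread over a wide range that did not reach them. The log2 fold change was -1.56 ± 0.41 (edgeR's quasi-likelihood test, adjusted p = 0.143, and 0.106 without DKD replicate 1). Cyp2c23 was called lower by DESeq2 (adjusted p = 0.000546) and by limma-voom with quality weights (adjusted p = 0.0225). The other 9 Cyp2c members were at or under 1.06 CPM in every library except DKD replicate 1.

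Cyp2d9, a testosterone 16-alpha-hydroxylase known for its male-biased expression in mouse liver, had the smallest p of all members. Its level was 127, 134 and 131 CPM in DKD kidneys and 333, 397 and 432 CPM in control kidneys, so that the 3 DKD values were alike and far under the controls. The log2 fold change was -1.57 ± 0.12 (edgeR's quasi-likelihood test, unadjusted p = 3.75e-06, adjusted p = 0.0721). It was called without DKD replicate 1 (adjusted p = 0.00157 by edgeR), without control replicate 1, and when no count filter was used. Cyp2d12 had 8.02, 39 and 45.2 CPM in DKD kidneys and 59.2, 352 and 243 CPM in control kidneys. In both groups replicate 1 was the lowest, and the log2 fold change was -2.83 ± 0.90 (edgeR's quasi-likelihood test, adjusted p = 0.191). Cyp2d12 was called lower by DESeq2 (adjusted p = 0.0286) and by limma-voom with quality weights (adjusted p = 0.0287).

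Cyp2d10 had 18.7, 0.311 and 0.837 CPM in DKD kidneys and at most 0.381 CPM in control kidneys, and was high in DKD replicate 1 alone. The summed level of Cyp2d9, Cyp2d12 and Cyp2d10, which does not depend on how reads were split among them, was 154, 174 and 177 CPM in DKD kidneys and 392, 750 and 676 CPM in control kidneys, without overlap. Its log2 fold change was -1.85 ± 0.24 (edgeR's quasi-likelihood test, adjusted p = 0.103). Cyp2d26, at 79.8 to 144 CPM in DKD and 77.2 to 105 CPM in control kidneys, overlapped, as did Cyp2d22, at 27.8 to 33.5 CPM in DKD and 24.1 to 33.3 CPM in control kidneys.

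Cyp2e1, which oxidises ethanol, acetone and fatty acids, had 1399, 1138 and 713 CPM in DKD kidneys and 2657, 3006 and 2483 CPM in control kidneys. Every control was far above the highest DKD value, and the log2 fold change was -1.33 ± 0.25 (edgeR's quasi-likelihood test, adjusted p = 0.103, and 0.00562 without DKD replicate 1). Cyp2a4 and Cyp2a5, a steroid 15-alpha-hydroxylase and a coumarin hydroxylase whose coding sequences are 98.4% identical, were also at lower levels. Cyp2a4 had 132, 530 and 314 CPM in DKD kidneys and 581, 756 and 863 CPM in control kidneys. Cyp2a5 had 46.3, 97.8 and 42.1 CPM in DKD kidneys and 81.1, 195 and 168 CPM in control kidneys, with DKD replicate 2 above the lowest control. Their summed counts had a log2 fold change of -1.19 ± 0.44 (edgeR's quasi-likelihood test, adjusted p = 0.219). DESeq2 called Cyp2a4 and Cyp2a5 lower (adjusted p = 0.0325 and 0.0145), and limma-voom with quality weights called neither (adjusted p = 0.103 and 0.0768).

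Beside the members at lower levels, the proximal tubule markers were lower too. Of 12 such markers, 10 were fitted lower, 5 without overlap. Of all tested genes, 11.5% were lower and 13.8% higher without overlap. The summed level of the 12 markers was 34196, 19617 and 15204 CPM in DKD kidneys and 39836, 32237 and 32644 CPM in control kidneys. Kap, whose values follow below, was the largest part of this sum in every library. None of the 12 markers was at 0 in any group. Without DKD replicate 1 edgeR's quasi-likelihood test called 8 lower and none higher, where 5.84% of all genes fell and 9.67% rose. Of 6 male-biased kidney genes outside the P450s, 3 were fitted lower and 3 higher. Nat8, an acetyltransferase, was lower without overlap, at 133 to 172 CPM in DKD and 214 to 283 CPM in control kidneys, and Gsta4, a glutathione transferase, was higher without overlap, at 20.1 to 25.5 CPM in DKD and 12.2 to 18.3 CPM in control kidneys. Slc22a12 and Acsm3, fitted higher (0.09 and 0.38 on the log2 scale), overlapped, as did Slco1a1 and Kap. Slco1a1, an androgen-dependent transporter, had 397, 150 and 43.4 CPM in DKD kidneys and 547, 465 and 288 CPM in control kidneys, and Kap, an androgen-regulated proximal tubule gene on both lists, had 22406, 11264 and 6920 CPM in DKD kidneys and 26109, 19385 and 19639 CPM in control kidneys. With DKD replicate 1 left out, edgeR's quasi-likelihood test called Nat8 and Kap lower and Gsta4 higher (adjusted p = 0.0157, 0.0157 and 0.0411). The part of these markers in the P450 results was not tested.

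The smaller subfamilies gave few differences. Cyp1b1, a target of the aryl hydrocarbon receptor, had 10.7, 20.3 and 40 CPM in DKD kidneys and 10.3, 16 and 20.8 CPM in control kidneys, and its log2 fold change of 0.59 was -0.02 without DKD replicate 3. Cyp1a1, another target of that receptor, was at 0.571 to 1.38 CPM in DKD and 0.47 to 1.09 CPM in control kidneys. Cyp2s1, an epithelial P450, had 19.6, 27.6 and 16.3 CPM in DKD kidneys and 10.9, 14.7 and 13.7 CPM in control kidneys, without overlap, with a log2 fold change of 0.69 ± 0.22 (edgeR's quasi-likelihood test, adjusted p = 0.17). Cyp2u1, a fatty acid hydroxylase, was at 4.85 to 5.63 CPM in DKD and 3.02 to 5.2 CPM in control kidneys. Cyp2r1, a vitamin D 25-hydroxylase, had 0.276, 1.08 and 1.15 CPM in DKD kidneys and 1.28, 0 and 0 CPM in control kidneys, so that 1 control was above all DKD values. Its log2 fold change was 0.99 ± 1.68 (edgeR's quasi-likelihood test, adjusted p = 0.776). The limma-voom fit with quality weights called Cyp2r1 higher, at 6.10 (adjusted p = 0.025), despite that control and on few counts. Cyp2b9, Cyp2b10 and Cyp2t4 were at or under 1.46 CPM in every library and overlapped.

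A separate group of members was high in DKD replicate 1 alone. In 19 members that library held at least 50% of the counts of all 6, and in 14 at least 90%. The summed level of the 19 was 356, 6.83 and 6.96 CPM in DKD kidneys and 6.48, 6.7 and 8.1 CPM in control kidneys, so that DKD replicates 2 and 3 were like the controls. The 12 untested members are all among them, and 8 members had no count in any control. Several are known as abundant P450s of the mouse liver. Cyp3a11, the main drug-oxidising Cyp3a enzyme there, had 82, 0.143 and 0.412 CPM in DKD kidneys and at most 0.155 CPM in control kidneys. Cyp2c70, which makes muricholic bile acids in mice, had 39.9, 0 and 0 CPM in DKD kidneys and 0 CPM in control kidneys. Cyp3a25 had 10.6, 0 and 0 CPM in DKD kidneys and 0 CPM in control kidneys. Cyp1a2 had 24.3, 0.104 and 0 CPM, and Cyp2c29 had 29, 0.0519 and 0.0825 CPM, in DKD kidneys, and both were at 0 CPM in control kidneys.

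Cyp2f2, a naphthalene-oxidising enzyme of lung and liver, had 38.3, 3.05 and 2.22 CPM in DKD kidneys and 3.15 to 3.74 CPM in control kidneys. Its fitted log2 fold change of 2.10 turned to -0.38 without DKD replicate 1, as did that of Cyp4f14 (1.28 and -0.31) and of Cyp2c68 (3.27 and -2.23). The fitted changes of Cyp3a11 (8.13 ± 3.01) and Cyp2d10 (4.83 ± 1.93) likewise came from that 1 library and were 1.50 ± 1.23 and 1.31 ± 1.15 without it. Cyp3a13 had 5.46, 0.779 and 0.789 CPM in DKD kidneys and 0.404 to 0.48 CPM in control kidneys and did not overlap even there, at 0.82 ± 0.41 without DKD replicate 1 (adjusted p = 0.225 by edgeR's quasi-likelihood test). These members moved with the hepatocyte list given above; its part in their level was not tested.

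**Figure D4:**
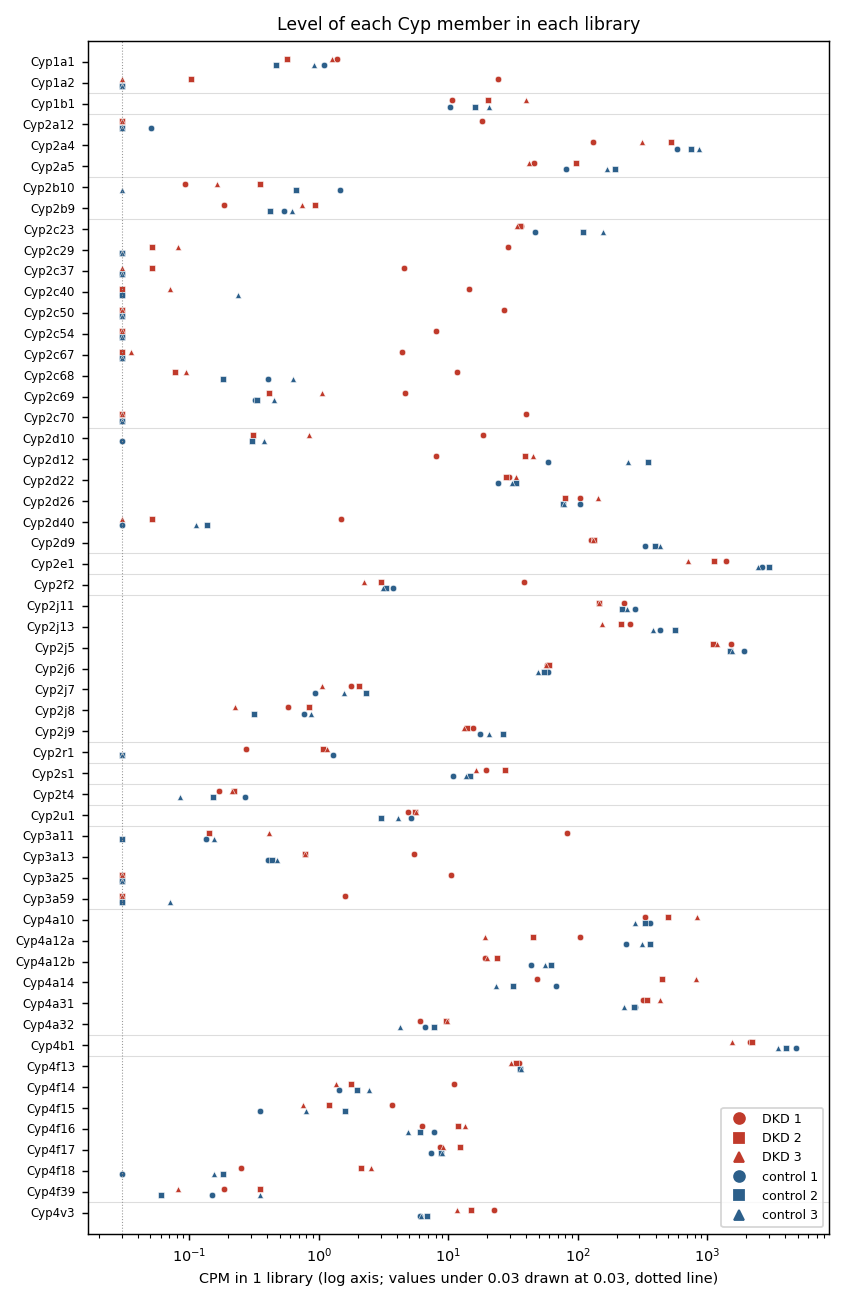
CPM of each of the 56 members (y axis, grouped by subfamily) in each library on a log axis, DKD in red above control in blue, with circles, squares and triangles for replicates 1 to 3 and values under 0.03 CPM drawn at that line. The red circles of most Cyp2c and Cyp3a genes stand far to the right of every other library, for Cyp3a11 at 82 CPM against at most 0.412 CPM.

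The promoters of some of these genes hold short motifs of general interest, chosen after the promoters were seen. RefSeq promoters (GRCm38.p6, 250 bases before to 50 after the start) were found for 44 members in 49 entries. The TATA element TATAA stood on either strand in 25 of the 49 (51%), against 24.9% of 32851 promoters of all genes. An HNF4-type element, CAAAGTCCA, stood in 6 (12.2%), against 0.475%, and these were Cyp2c40, Cyp2c67, Cyp2c68, Cyp2c69, Cyp2c70 and Cyp3a11, of which the first 4 are near copies. An HNF1-type motif, GTTAAT, stood in 8 (16.3%), against 7.1%, and 2 copies of AGGTCA spaced by 1 base in 0, against 0.0396%. No motif searched is contained in another, and a match describes letters, not binding. The 120 bases before the start are printed for 3 abundant members at lower levels in DKD kidneys, with TATAA on either strand in capitals, and for 3 members high in DKD replicate 1, with CAAAGTCCA in capitals.
Cyp2d9 (chr15:82452257-82452376, plus strand): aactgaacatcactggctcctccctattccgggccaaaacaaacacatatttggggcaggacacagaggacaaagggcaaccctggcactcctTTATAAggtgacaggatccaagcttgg
Cyp2e1 (chr7:140763699-140763818, plus strand): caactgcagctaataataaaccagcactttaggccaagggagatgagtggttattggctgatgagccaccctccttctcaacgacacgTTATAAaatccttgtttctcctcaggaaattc
Cyp4b1 (chr4:115647722-115647841, minus strand): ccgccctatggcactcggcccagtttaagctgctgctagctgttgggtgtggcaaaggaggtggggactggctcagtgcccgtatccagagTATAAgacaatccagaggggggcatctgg
Cyp2c70 (chr19:40187287-40187406, minus strand): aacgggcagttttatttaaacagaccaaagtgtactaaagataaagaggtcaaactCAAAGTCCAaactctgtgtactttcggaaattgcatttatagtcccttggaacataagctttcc
Cyp3a11 (chr5:145879855-145879974, minus strand): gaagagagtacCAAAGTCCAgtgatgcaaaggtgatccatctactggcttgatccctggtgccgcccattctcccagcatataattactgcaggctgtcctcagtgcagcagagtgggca
Cyp2c40 (chr19:39812815-39812934, minus strand): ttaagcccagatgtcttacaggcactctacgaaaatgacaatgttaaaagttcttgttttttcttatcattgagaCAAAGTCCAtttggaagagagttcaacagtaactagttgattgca

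The enzymes that pass electrons to P450s, make their haem or act beside them were described from 6 lists, with 0 of 75 tested genes called by edgeR's quasi-likelihood test on all libraries. Without DKD replicate 1 it called 27 of 76 (35.5%), against 15.5% of all genes; 10 rose (13.2%, against 9.67%) and 17 fell (22.4%, against 5.84%). Of 9 electron partners, 6 were fitted lower (median log2 fold change -0.26), and 4 fell and none rose without DKD replicate 1. Cyb5a, the microsomal cytochrome b5, had 450, 408 and 349 CPM in DKD kidneys and 733, 580 and 555 CPM in control kidneys, a log2 fold change of -0.63 ± 0.16 (adjusted p = 0.133 by edgeR's quasi-likelihood test, or 0.0221 with DKD replicate 1 left out). Por, the P450 oxidoreductase, picked after its values were seen, had 445, 252 and 228 CPM in DKD kidneys and 407, 431 and 380 CPM in control kidneys, with DKD replicate 1 above every control. Its log2 fold change was -0.40 ± 0.25, and -0.77 ± 0.11 without that library (adjusted p = 0.417 and 0.00615 by edgeR's quasi-likelihood test).

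Of 8 genes of haem synthesis, 7 were fitted lower (median -0.29). Without DKD replicate 1, 2 fell and none rose, where 5.84% of all genes fell and 9.67% rose. Alad, which makes porphobilinogen, had 65.9, 61.2 and 55 CPM in DKD kidneys and 82, 79 and 87.2 CPM in control kidneys, a log2 fold change of -0.45 ± 0.10 (edgeR's quasi-likelihood test, adjusted p = 0.112, or 0.0181 with DKD replicate 1 left out). Fech, which inserts the iron, had 145, 129 and 117 CPM in DKD kidneys and 172, 162 and 162 CPM in control kidneys. The differences were small but without overlap, and the adjusted p of Fech was 0.168 by edgeR's quasi-likelihood test, or 0.0271 with that library left out. All 5 flavin monooxygenases, the other microsomal oxygenases of this tissue, were fitted lower (median -0.42), and 2 fell without DKD replicate 1. Fmo2 had 296, 348 and 314 CPM in DKD kidneys and 401, 458 and 499 CPM in control kidneys (adjusted p = 0.133 by edgeR's quasi-likelihood test, or 0.0459 with DKD replicate 1 left out).

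Among 24 tested regulators of P450 genes, 15 were fitted lower (median -0.17). Without DKD replicate 1, of 25 tested, 4 fell and 2 rose, where 5.84% of all genes fell and 9.67% rose. The 2 that rose were Ahr, the aryl hydrocarbon receptor, and its repressor Ahrr, which was not among the 24. Hnf4a and Nr1h4 were lower without overlap. Hnf4a, a nuclear receptor of proximal tubule and liver, had 667, 529 and 538 CPM in DKD kidneys and 915, 953 and 864 CPM in control kidneys (log2 fold change -0.66 ± 0.13, adjusted p = 0.104 by edgeR's quasi-likelihood test, or 0.00447 with DKD replicate 1 left out). Nr1h4, the bile acid receptor FXR, had 114, 128 and 110 CPM in DKD kidneys and 181, 220 and 179 CPM in control kidneys (adjusted p = 0.103 by edgeR's quasi-likelihood test, or 0.0154 with that library left out). Ppara, named after its values were seen because Cyp4a10 and Cyp4a14 are its targets, had 21.1, 21.8 and 21.1 CPM in DKD kidneys and 19.1, 35.5 and 23.5 CPM in control kidneys, and overlapped.

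The 16 enzymes of epoxides and eicosanoids leaned the other way, with 12 fitted higher (median 0.64). Without DKD replicate 1, 6 rose and 3 fell, where 9.67% of all genes rose and 5.84% fell. Pla2g4a, the phospholipase that frees arachidonic acid, had 8.85, 10.4 and 13.7 CPM in DKD kidneys and 5.1, 5.39 and 6.21 CPM in control kidneys, a log2 fold change of 0.98 ± 0.20 (edgeR's quasi-likelihood test, adjusted p = 0.106, or 0.0119 with DKD replicate 1 left out). Ephx2, the soluble hydrolase of arachidonic acid epoxides, was lower, at 436, 396 and 361 CPM in DKD kidneys and 575, 587 and 502 CPM in control kidneys (adjusted p = 0.136 by edgeR's quasi-likelihood test, or 0.0193 with that library left out). Ephx1, the microsomal epoxide hydrolase, picked after its values were seen, had 42.4, 161 and 202 CPM in DKD kidneys and 35.5, 32.7 and 31.8 CPM in control kidneys, with DKD replicate 1 close to the controls (adjusted p = 0.151 by edgeR's quasi-likelihood test, or 0.000412 with it left out).

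Among 13 tested P450 genes of families above 4, 7 were fitted higher and 6 lower (median 0.10). Without DKD replicate 1, 2 rose and 2 fell, where 9.67% of all genes rose and 5.84% fell. Cyp24a1, the vitamin D 24-hydroxylase of the kidney, had 34.4, 75 and 200 CPM in DKD kidneys and 20.1, 27.7 and 25.2 CPM in control kidneys, and Cyp39a1, an oxysterol hydroxylase, had 9.04, 12.3 and 17.1 CPM in DKD kidneys and 7.56, 4.61 and 3.46 CPM in control kidneys. Neither overlapped, and both were called with DKD replicate 1 left out (adjusted p = 0.0167 for Cyp24a1 and 0.0264 for Cyp39a1 by edgeR's quasi-likelihood test). Cyp27a1, a mitochondrial sterol hydroxylase, had 51, 45.2 and 52 CPM in DKD kidneys and 60.9, 68.2 and 59.6 CPM in control kidneys. Cyp7b1, an oxysterol hydroxylase named after its values were seen, had 251, 84.8 and 66.1 CPM in DKD kidneys and 373, 293 and 332 CPM in control kidneys. Its log2 fold change of -2.15 ± 0.16 without DKD replicate 1 (adjusted p = 0.00128 by edgeR's quasi-likelihood test) stood beside -1.31 ± 0.51 with it. The adrenal cortex lies on the kidney, and its 6 markers summed to 4.2 to 4.93 CPM in DKD and 4.43 to 7.42 CPM in control kidneys. Star made up most of the sum in every library, at 3.38 to 4.32 CPM. Hsd3b1 was at 0.389 to 0.827 CPM in DKD and 0.858 to 3.32 CPM in control kidneys. Cyp11a1, Cyp11b1 and Cyp21a1 were near 0, at or under 0.0987 CPM in every library, and Cyp11b2 was at 0 in all libraries.

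**Figure D5:**
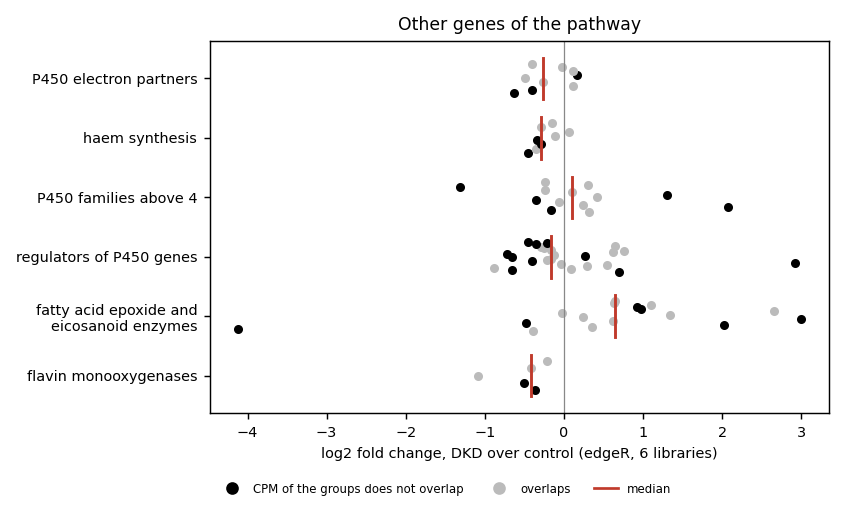
Log2 fold change of DKD over control kidneys (x axis, edgeR on 6 libraries) for each tested gene of the 6 lists, in black where the CPM of the groups did not overlap, with the median of each list as a red line. Medians run from -0.42 for the flavin monooxygenases to 0.64 for the epoxide and eicosanoid enzymes.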

How the data were processed

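Poly(A) RNA of 6 whole mouse kidneys was sequenced in paired reads of 150 bases from strand-marked libraries, per the labels' protocols. The authors deposited raw read counts per Ensembl gene, with no normalisation. The submitters' processing notes name fastp, HISAT2, StringTie, edgeR and the GRCm39 build; no version, annotation or strand setting is given in the sources read. Symbols (55141 of 55401 rows) came from a reference table of another build, so no coordinates are given beyond those of the promoter table.

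Counts were fitted in R 4.3.3 with edgeR 4.0.16 (robust quasi-likelihood test, two-sided, TMM factors, default count filter on the groups, Benjamini-Hochberg adjustment over the 19197 genes tested, threshold 0.05). The standard error of a log2 fold change is the change divided by the square root of the F statistic. Alternatives were DESeq2 1.42.0, limma-voom 3.58.1 with sample quality weights, upper quartile and RLE factors, library size alone, TMM without the 50 most counted genes, no filter, a minimum of 1 CPM in 3 libraries, a replicate block, leaving out each library, and summing near-identical copies. Summing was grouped by GENCODE coding identity of at least 90%, a choice made after seeing the data. The edgeR test was tried on simulated counts. Members of a group of paralogues can share reads; levels per kilobase use the GENCODE transcript length. The members, lists and rules were chosen with earlier results of these data known. Named members are the 15 with the smallest p, the 2 most abundant of each subfamily and those without overlap, and from each list up to 3 genes with the smallest p, of which 1 is not reported here; others are said to be picked after their values were seen, or are given as examples of the copies and of the members high in DKD replicate 1.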

Additional observations from a re-analysis of the deposited data

How the results depend on the processing

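The counts of calls depended on the test and on DKD replicate 1. Against 0 genes, 0 members and 0 other genes of the pathway in edgeR's quasi-likelihood test, DESeq2 called 1749 genes, 18 members and 20 pathway genes, and limma-voom with quality weights called 3401, 16 and 26. Without a count filter edgeR called 4 genes and 1 member, Cyp2d9. Leaving out 1 library gave 0 to 3101 genes, 0 to 15 members and 0 to 27 pathway genes. The upper ends came without DKD replicate 1; without control replicate 1 edgeR called 7 genes, among them Cyp2d9, and without DKD replicate 3 it called 1 gene. Upper quartile and RLE factors, library size alone, TMM without the 50 most counted genes, a minimum of 1 CPM in 3 libraries and summed paralogues gave 0 calls. Library size alone moved the median of all genes by 0.15 on the log2 scale, and 29 members were then fitted higher. The replicate block gave 0 genes and 0 members. After the group mean of each gene was subtracted, same-numbered DKD and control libraries correlated at 0.0336, 0.0227 and 0.0344. Other DKD and control pairs lay between -0.0299 and 0.000649, so each library correlated best with its own number. Values this small cannot settle whether the numbers pair the libraries.

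Of 642 values of 44 members under alternatives, 568 kept the direction and the call, 51 were newly called and 23 reversed, in 12 genes. Library size alone gave Cyp4f13 0.02 on the log2 scale, and the weighted fit gave Cyp2b10 1.15, Cyp2c68 -1.36, Cyp2d22 -0.06, Cyp2j7 -0.14 and Cyp4f14 -0.13. Leaving out 1 library gave ranges of -0.02 to 0.93 for Cyp1b1, -0.18 to 0.66 for Cyp2b9, -2.23 to 3.85 for Cyp2c68, -0.09 to 0.13 for Cyp2d22, -0.38 to 2.60 for Cyp2f2, -0.25 to 0.37 for Cyp2j7, -0.71 to 0.12 for Cyp2j8, -0.06 to 0.76 for Cyp2t4, -0.31 to 1.72 for Cyp4f14 and -0.50 to 0.95 for Cyp4f39. The cause was not tested, save that these settings use fewer libraries. Of 269 values of 18 other named genes, 227 kept their call, 42 were newly called and none reversed. Grouping paralogues by protein identity was not run.

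With 3 libraries a group and DKD replicate 1 apart from the rest, the fit on all libraries has a wide spread, and a missed threshold does not show that a gene was alike in both groups. Members under about 1 CPM rest on few counts.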
